A study of Mus musculus with 30 samples.

Results

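Adult mice that inhaled lipopolysaccharide and were then mechanically ventilated (LPS+MV) were compared with untreated adult mice. The comparison used 8 of the 30 arrays of the series, the 4 whose titles name 16 week old mice given both treatments and the 4 whose titles name 16 week old untreated controls. Every mouse was C57BL/6, a common inbred laboratory strain, and each array held total RNA from the whole lung of 1 animal. Lipopolysaccharide (LPS) from E. coli 0111:B4, 20 mL at 0.1 mg/mL, was given as an aerosol for 30 min, and ventilation then ran for 2 h at a tidal volume of 15 mL/kg, 80 breaths/min, 30% oxygen and a positive end expiratory pressure of 2 cmH2O. Controls breathed spontaneously and received nothing. Adult mice given LPS alone (4 arrays) breathed freely for the 2 h after the aerosol, and adult mice given ventilation alone (MV, 4 arrays) had the same ventilator settings. Juvenile mice of 21 days, 3 with LPS+MV and 4 controls, were used for the comparison between ages. The controls were neither placed in the aerosol chamber nor intubated, so the comparison with them includes those steps.

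LPS is a component of the outer membrane of Gram-negative bacteria. In the lung it is bound by CD14 and recognised by the TLR4 and MD-2 receptor pair, and adaptor proteins then pass the signal to NF-kB, which turns on chemokine and cytokine genes, and to interferon regulatory factors, which turn on interferon and its target genes. Chemokines with the CXC motif draw neutrophils from the blood, and CC chemokines draw monocytes and lymphocytes. Ventilation with large breaths stretches the alveolar wall, which is lined by flat type 1 cells for gas exchange and by type 2 cells that make surfactant.

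Gene levels are the deposited probe set intensities of the Affymetrix mouse 430 2.0 array, on a linear scale. Differences are log2 fold changes of intensity + 32, so a difference of 1 is about a doubling for bright genes and an understatement for dim ones. They were tested with limma over 13089 genes, two-sided, and a gene was said to have changed when its Benjamini-Hochberg adjusted p was under 0.05. Array medians lay between 21.6 and 22.8 across the series, and the spread behind each standard error was estimated from all 30 arrays of the series. Lung markers were bright in all 8 arrays. Sftpc, a surfactant protein of type 2 cells, was at 18190 to 20620 in controls and 18810 to 21360 after LPS+MV, and the club cell protein Scgb1a1 at 20190 to 23540 and 18860 to 21920. Sex is not among the labels, and no sex was assigned. Xist, the RNA that coats the inactive X chromosome, was low (19.5 to 22.3) in all 4 adult controls. It was high (634, 513 and 425) in LPS+MV replicates 1 to 3 and low (18.2) in replicate 4. Eif2s3y, a gene of the Y chromosome, ran the other way, at 160 to 204 in the controls, 9.13, 10.1 and 6.81 in replicates 1 to 3 and 194 in replicate 4. No control had high Xist, so the only value within 1 level of Xist sets replicate 4 against the controls. Controls 3 and 4 also differed from controls 1 and 2 in genes of neutrophils. S100a8, a calcium-binding protein of neutrophils, was at 1987, 1353, 8908 and 11370 in controls 1 to 4.

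The combined treatment changed the level of much of the lung's measured RNA within about 2 h. The 14 genes that rose most were 8 chemokines (Cxcl1, Cxcl2, Cxcl3, Cxcl5, Cxcl10, Ccl2, Ccl3 and Ccl20) with Il6, Saa3, Mt2, Cd14, Ch25h and Cd83, which rose by 3.67 to 6.20 on the log2 scale. The 10 that fell most, by 1.45 to 2.81, were 4 transcription factors (Etv5, Elf5, Klf2 and Meox2), the receptors Cckar and Tnfrsf19, and Tmem100, Ccn5, Cirbp and Tspyl4. Of the 13089 genes tested, 5512 (42.1%) changed, 1933 (14.8%) upward and 3579 (27.3%) downward. The larger changes ran mostly the other way, as 322 genes rose at least 2-fold and 93 fell at least 2-fold. The median over all genes was -0.05. The 2 groups did not overlap on any array for 42.2% of genes. With a term for Xist in the model 4108 genes passed, and with replicate 4 as the only LPS+MV array 2588 passed. Of the 5512 genes, 5474 kept their sign with replicate 4 alone. Replicate 4 is 1 of the 4 arrays behind those calls and the controls were the same, so this is not an independent check. For the 4764 genes that passed with no overlap between the groups, the sign could not change. Levels of Xist were thus not balanced between the groups, and the part of sex in the single results was not tested beyond these 2 fits.

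The 14 genes that rose most among those with no overlap were mostly secreted proteins. Cxcl1, a neutrophil-attracting chemokine, was at 12.9, 16.1, 12.5 and 14.3 in the controls and at 3362, 2570, 4780 and 3003 after LPS+MV, a difference of 6.20 ± 0.19 (SE; n = 4 and 4; limma adjusted p = 1.7e-19). Its 2 other probe sets gave 5.18 and 2.13, and the mean over its probe sets gave 4.503. Every treated array was far above every control. Cxcl2, a chemokine that acts on the same receptor, was at 8.63, 8.84, 9.13 and 11.4 in controls and at 2490, 1843, 2807 and 1482 after treatment, a rise of 5.68 ± 0.18, or 7.65 when 1 instead of 32 was added to the intensities. Its control values lie below the array medians, so the size of this rise depends on the constant added. Cxcl3 and Cxcl5, of the same group, rose by 4.73 ± 0.14 and 4.49 ± 0.18. With 1 added they rose by 6.83 and 6.27 and Cxcl1 by 6.215, so the order of these genes also depends on the constant.

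Cxcl10, which is induced by interferon and draws T cells, was at 23.7, 28.4, 51.1 and 18.4 in controls and at 2033, 1920, 3240 and 1994 after LPS+MV, a rise of 5.21 ± 0.22. Replicate 3 stood above the other 3 treated arrays. Ccl20, the ligand of CCR6, rose by 4.78 ± 0.12, from 16.7 to 24.3 across controls to 1214 to 1813. Ccl2, which draws monocytes, rose by 3.84 ± 0.22, and Ccl3, a macrophage chemokine, by 3.67 ± 0.18. Il6, the cytokine that drives the acute phase response, was at 10.6 to 13.47 in controls and at 1146, 724, 1731 and 792 after treatment (4.601 ± 0.37). Its treated values spread more than those of the chemokines, but none came near a control.

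Saa3, an acute phase protein, was at 47.6, 37.7, 117 and 255 in controls and at 3750, 2791, 3637 and 4249 after LPS+MV (4.86 ± 0.30). Controls 3 and 4, the arrays with high neutrophil genes, were also the higher for Saa3. Mt2, a metal-binding metallothionein, rose by 3.96 ± 0.25, with controls at 276, 213, 326 and 602 and treated arrays between 4744 and 6290. Cd14, the LPS co-receptor itself, was at 350 to 416 in controls and 5632 to 6782 after treatment (3.94 ± 0.11). Ch25h, which makes 25-hydroxycholesterol, rose by 4.51 ± 0.24, and Cd83, a marker of activated dendritic cells and B cells, by 3.68 ± 0.16.

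**Figure D1:**
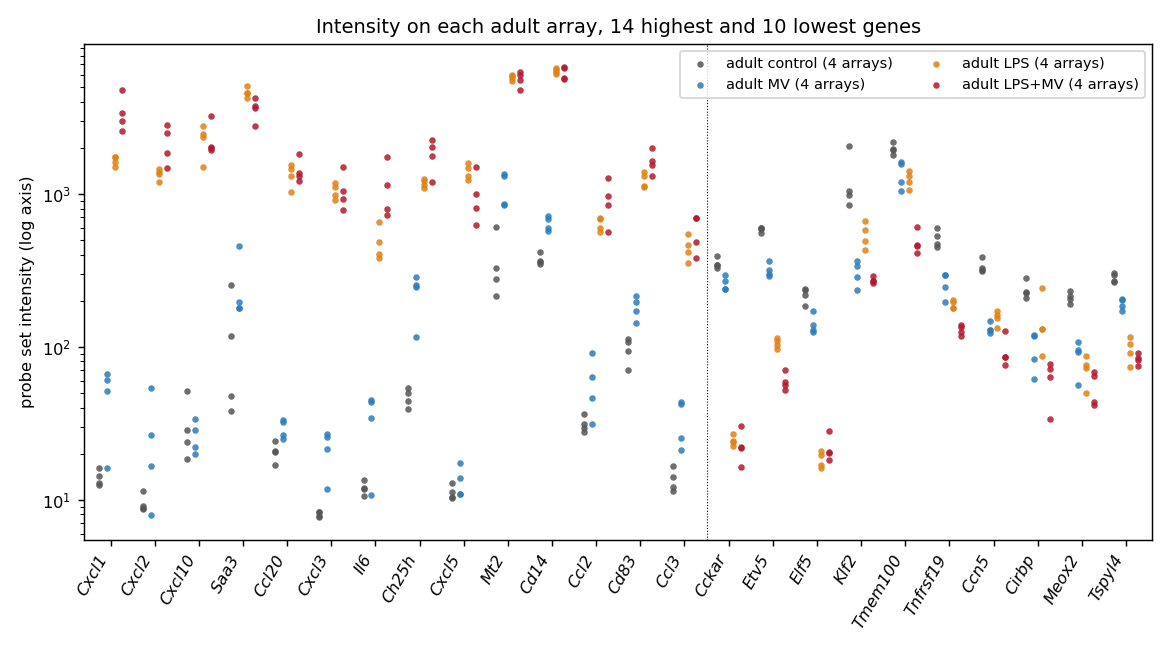
Probe set intensity (log axis) of the 14 genes that rose most and the 10 that fell most, with 1 point for each of the 4 arrays of every adult group. In the genes on the left the LPS+MV points lie far above the control points, as for Cxcl1 at 2570 to 4780 against 12.5 to 16.1, and the MV points lie mostly near the controls.

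The promoters of the genes that rose most are shown because several share the sequence bound by NF-kB. RefSeq promoters (build GRCm38.p6) were held for 17 of these 24 genes, 10 of the 14 that rose and 7 of the 10 that fell, and the 250 bases before the start were searched on both strands. The kB motif, GGG then any 3 bases then TTCC, was found for 6 of the 10 and 1 of the 7 (Meox2), beside 4.65% of all 32851 promoters in the table. The interferon response motif, GAAA then any 2 bases then GAAA, was found for 2 of the 10 and 0 of the 7 (2.98% of all), the AP-1 motif TGANTCA for 3 and 0 (6.75%), and the cyclic AMP motif TGACGTCA for 1 and 1 (1.55%). A gene with several promoters counted once if any held the motif. The percentages of all count each promoter by itself, so the 2 differ in unit. The motifs are descriptions of letters, and binding was not measured. Capitals below mark matches to the kB motif on either strand, and the 11 bases GGGAATTTCCC hold 2 overlapping matches, 1 on each strand.
Cxcl1, chr5:90891125-90891204, + strand, bases -120 to -41 from the start: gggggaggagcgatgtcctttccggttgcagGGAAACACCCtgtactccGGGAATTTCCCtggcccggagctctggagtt
Cxcl2, chr5:90903779-90903858, + strand, bases -120 to -41: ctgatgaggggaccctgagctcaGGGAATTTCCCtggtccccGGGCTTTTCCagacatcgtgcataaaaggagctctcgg
Cxcl3, chr5:90785981-90786070, + strand, bases -120 to -31: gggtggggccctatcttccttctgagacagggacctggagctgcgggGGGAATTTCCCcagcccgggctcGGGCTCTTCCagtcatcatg
Ccl20, chr1:83116646-83116725, + strand, bases -120 to -41: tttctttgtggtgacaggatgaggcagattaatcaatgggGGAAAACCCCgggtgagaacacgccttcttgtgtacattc
Il6, chr5:30013024-30013103, + strand, bases -90 to -11: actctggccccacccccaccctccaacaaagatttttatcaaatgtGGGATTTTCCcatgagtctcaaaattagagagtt

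The promoter of Cxcl10 held both the kB motif, at 2 places, and the interferon response motif, shown here with all of them in capitals.
Cxcl10, chr5:92348970-92349109, - strand, bases -220 to -81: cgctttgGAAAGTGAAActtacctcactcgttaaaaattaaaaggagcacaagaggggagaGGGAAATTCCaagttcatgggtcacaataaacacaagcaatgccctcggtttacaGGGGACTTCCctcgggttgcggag
Cxcl1, Cxcl2 and Cxcl3 lie close together on chromosome 5, and in each of them the same bases GGGAATTTCCC stand within 120 bases of the start.

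The 10 genes that fell most with no overlap are given next. Cckar, a receptor for cholecystokinin, was at 341, 326, 340.5 and 392 in controls and at 16.3, 21.8, 22.1 and 30.4 after LPS+MV, a fall of 2.81 ± 0.08 (the log2 difference was -2.81; adjusted p = 8.73e-20). The treated values lie near the array medians. Etv5, a transcription factor that type 2 cells need to maintain surfactant genes, was at 588, 600, 550.0 and 594 and then at 56.4, 58.6, 52.0 and 70.7 (-2.75 ± 0.09). Its 2 other probe sets gave -1.60 and -1.94. Elf5, a transcription factor of epithelial progenitors, went from 184 to 238 across controls to 18.1 to 28.3 (-2.22 ± 0.09).

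Klf2, a flow-induced transcription factor of quiescent endothelium, was at 838, 2056, 982 and 1039 in controls and at 268, 291, 267 and 259 after treatment (-1.97 ± 0.25). Control 2 was high and the 4 treated arrays were close to each other. Tmem100, an endothelial protein induced by BMP signalling, was at 1941, 1784, 1967 and 2175 and then at 463, 610, 410 and 455 (-1.96 ± 0.21), while a second, dimmer probe set of the gene gave -0.21. For Tnfrsf19, a TNF receptor family member, the brightest probe set fell (-1.75 ± 0.17) and the other 2 gave -0.22 and -0.17. Meox2, a homeobox factor, fell by the brighter of its probe sets, which could also detect related transcripts (-1.50 ± 0.27), and the other gave -1.22. Ccn5, a matricellular protein (-1.56 ± 0.13), and Tspyl4 (-1.45 ± 0.09) also fell. The cold-inducible RNA-binding protein Cirbp fell (-1.54 ± 0.32), and with replicate 4 as the only LPS+MV array its adjusted p was 0.0598. It was the only 1 of these 24 genes to lose its call in a setting tried.

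Genes were then grouped by role. The lists were chosen with earlier results of these data known, so a list count is a description and not an independent test. Each list count stands beside the 14.8% of all genes that rose and the 27.3% that fell. Those shares do not apply to list counts with the Xist term or with replicate 4 alone, where fewer genes passed in all. Among 7 neutrophil-attracting CXC chemokines and receptors, 5 rose and 1 fell, with a median of 4.49 beside -0.05 over all genes. The 1 that fell was Ppbp, a chemokine stored in platelets (-1.24 ± 0.27; adjusted p = 0.122 with replicate 4 as the only treated array). The lung-specific Cxcl15 did not pass (-0.03 ± 0.07), at 7933 ± 194 (SD, n = 4) in controls. The receptor Cxcr2, carried by neutrophils, rose by 1.23 ± 0.31. Of 16 CC chemokines 11 rose and 0 fell (median 1.80). Besides those above, Ccl17 rose by 3.34 ± 0.20 and Ccl22 by 1.85 ± 0.16, both ligands of CCR4, and Ccl4, Ccl7 and Ccl12 rose by 2.54 to 2.72. The epithelial chemokines Ccl25 (0.00) and Ccl28 (-0.00) did not pass. Of the 4 interferon-induced genes Cxcl9, Cxcl10, Cxcl11 and Cxcr3, 2 rose. Cxcl9 was at 15.0, 12.7, 171 and 11.8 in controls, so control 3 overlapped the treated range of 98.2 to 244, and with replicate 4 alone its adjusted p was 0.211.

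In the interleukin-1 family 8 of 10 rose and 0 fell (median 1.02). Il1b, a fever-inducing cytokine, was at 203, 180.0, 610 and 629 in controls and at 2831, 1962, 3281 and 2426 after treatment (2.78 ± 0.32), and both brakes on it, the receptor antagonist Il1rn (2.56 ± 0.12) and the decoy receptor Il1r2 (2.60 ± 0.29), rose as well. In the interleukin-6 family 5 of 10 rose and 3 fell (median 0.10). The receptor subunit for oncostatin M, Osmr, rose by 1.93 ± 0.09 and that for leukaemia inhibitory factor, Lifr, fell by 0.80 ± 0.10, a difference in direction between 2 receptors that share the partner Il6st. Among colony-stimulating factors, Csf2 (GM-CSF) was at 30.1 to 51.9 in controls and at 816, 587, 943 and 761 after treatment (3.47 ± 0.15). Csf3 (G-CSF) rose by 1.86 ± 0.19 and Csf1 (M-CSF) by 1.41 ± 0.12 (0.733 to 1.541 over the settings tried). The M-CSF receptor Csf1r fell (-0.50 ± 0.13, but -0.271 with replicate 4 alone), and lost its call with the Xist term (adjusted p = 0.0905). In the TNF superfamily 7 of 13 rose and 1 fell (median 0.51). Tnf itself was at 38.0, 45.0, 36.0 and 48.9 and then at 238, 142, 204 and 141 (1.50 ± 0.12), a smaller difference than that of Tnfsf9, the ligand of 4-1BB (3.43 ± 0.22), whose receptor Tnfrsf9 rose by 1.51 ± 0.15.

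The machinery that senses LPS rose in part. Of 13 genes of the receptor complex and its adaptors 9 rose and 1 fell (median 0.60). After Cd14 the largest rise was that of Tlr2, the receptor for bacterial lipoproteins (2.61 ± 0.12), then of the adaptor Myd88 (1.26 ± 0.12). Tlr4 rose by 0.83 ± 0.11 and its partner Ly96 (MD-2) by 0.75 ± 0.09. All 12 tested genes of NF-kB subunits and feedback inhibitors rose (median 1.69). Tnfaip3 (A20), a ubiquitin-editing enzyme that shuts NF-kB signalling down, was at 201, 195, 162 and 156 in controls and at 2134, 1810, 2544 and 1687 after treatment (3.29 ± 0.14). Nfkbia, the classical inhibitor of NF-kB, was bright already in controls, at 2498 to 3175, and reached 7491 to 8849 (1.59 ± 0.09). Nfkbiz, an inducible nuclear member that helps to turn on secondary genes such as Il6, rose by 3.10 ± 0.22, and the subunit Rela by 0.75 ± 0.11. Cyld, a deubiquitinase, rose least (0.20 ± 0.07), and lost its call without control 3 or LPS+MV replicate 2 or 4 (adjusted p 0.0529 to 0.0626), with the mean over its probe sets (0.0642) and with replicate 4 alone (0.123).

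Of 24 interferon-stimulated genes tested 15 rose and 1 fell (median 0.66), and with replicate 4 alone 9 rose. Ifit1, which binds foreign RNA, was at 173, 169, 172 and 132 in controls and at 1032, 976, 1855 and 1189 after treatment (2.70 ± 0.20), and Iigp1, a GTPase that attacks vacuoles of microbes, rose by 2.24 ± 0.33. The Oas enzymes Oas1a (0.01 ± 0.16), Oas2 (0.06 ± 0.07) and Oas3 (-0.01 ± 0.05), and Bst2 (0.01 ± 0.12) did not pass. Among 8 interferon regulatory factors 3 rose and 1 fell. Irf1 rose by 1.50 ± 0.14 and Irf9 by 0.58 ± 0.09, while Irf7, often induced by interferon, did not pass (0.23 ± 0.13). None of 15 tested genes of antigen processing and MHC class II passed (median -0.03), with standard errors of 0.07 to 0.21. Of the SOCS family of cytokine signal inhibitors 5 of 8 rose (median 0.28). Socs3 led, with 257, 264, 520 and 571 in controls and 2797, 2712, 3339 and 2849 after treatment (2.84 ± 0.29).

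All 12 acute phase genes tested rose (median 1.18). After Saa3 came Steap4, a metalloreductase (3.11 ± 0.21), and Ptx3, a soluble pattern receptor (2.19 ± 0.25). Lcn2, which withholds iron from bacteria, was at 874, 993, 1684 and 2368 in controls and at 5268, 4859, 5136 and 5895 after treatment (1.92 ± 0.21). Hp (haptoglobin) rose by only 0.34 ± 0.06 from 6042 ± 191 (SD, n = 4). Cp, which carries copper, rose by 0.26 ± 0.10 and lost its call when any of 6 arrays was left out, namely controls 1 to 3 and LPS+MV replicates 1, 3 and 4 (adjusted p 0.0606 to 0.204), with quantile normalization (0.106), with no filter on dim probe sets (0.0592) and with the Xist term (0.257).

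Stress genes of several kinds rose. Of the 6 metallothionein and zinc transport genes 3 rose: Mt1 by 3.11 ± 0.24, Mt2 as above, and the zinc importer Slc39a14 by 1.81 ± 0.12. Of 12 NRF2 and antioxidant genes 9 rose and 0 fell (median 0.77; 8 rose with the Xist term). Gclc, the catalytic subunit for glutathione synthesis, was at 1025 to 1096 in controls and 4284 to 4990 after treatment (2.09 ± 0.15), whereas its modifier subunit Gclm (-0.09 ± 0.14) and Nqo1 (-0.06 ± 0.09), 2 common NRF2 targets, did not pass. Sod2, the mitochondrial superoxide dismutase and also an NF-kB target, rose by 1.87 ± 0.06. Of 19 immediate early genes 13 rose and 0 fell (median 1.04), led by Atf3 (2.92 ± 0.47), Fosl2 (2.44 ± 0.19) and Egr1 (2.38 ± 0.42), whereas Jun (0.43 ± 0.20) and Nr4a1 (-0.30 ± 0.52) did not pass. Of 12 growth arrest genes 9 rose and 1 fell (median 1.19; 8 rose and 0 fell with the Xist term), with Gadd45g at 2.11 ± 0.21 and Gadd45a at 1.67 ± 0.15.

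Of 14 heat shock genes 5 rose and 1 fell, and 0 rose with the Xist term and 2 with replicate 4 alone. Hspa1a, an inducible HSP70, was at 190, 113, 328 and 1112 in LPS+MV replicates 1 to 4 and at 37.2 to 81.9 in controls, and did not pass (1.95 ± 0.83, adjusted p = 0.0594). Its replicate 4 was the highest and is also the treated array with low Xist. Of 15 genes of the unfolded protein and integrated stress response 7 rose and 0 fell (median 0.26; 4 rose with replicate 4 alone), with Atf4 at 0.94 ± 0.13 and Xbp1 at 0.88 ± 0.08, and the endoplasmic chaperone Hsp90b1 did not pass (-0.18 ± 0.09). Of 15 glucocorticoid receptor targets 10 rose and 0 fell (median 1.51; 9 rose with the Xist term). The transcription factor Cebpd, a shared target of glucocorticoids and cytokines, rose by 2.83 ± 0.24, and Fkbp5, a chaperone of the receptor, was at 86.0, 62.8, 97.8 and 150.3 in controls and at 413, 340.1, 330.0 and 395 after treatment (1.65 ± 0.24). Tsc22d3 (GILZ), a common glucocorticoid target, did not pass (0.12 ± 0.22).

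**Figure D2:**
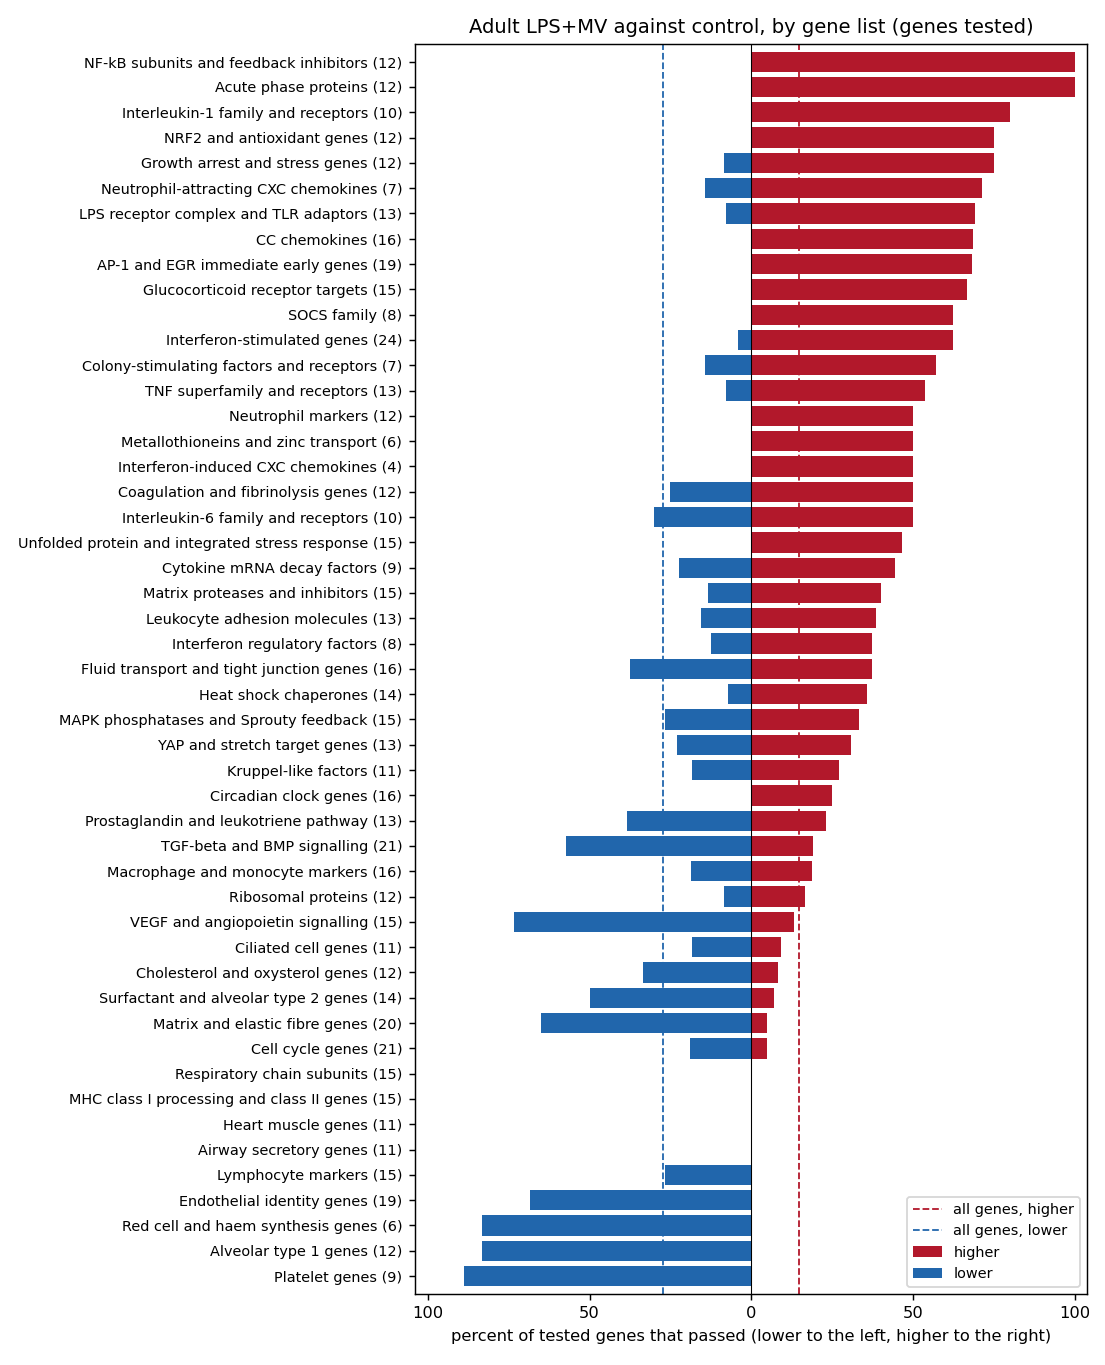
Percent of the tested genes of each list that rose (red, right) or fell (blue, left) in adult LPS+MV against control, with dashed lines at the shares of all 13089 genes, 14.8% higher and 27.3% lower. NF-kB and acute phase genes all rose, 12 of 12 each, and none of the 15 respiratory chain genes passed. The lists were chosen with earlier results of these data known.

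Several groups of genes of the lung's structural cells fell. Because the RNA came from whole lung, fewer cells of a type and less RNA per cell cannot be told apart here and in the paragraphs that follow. Of 12 type 1 cell genes 10 fell and 0 rose (median -0.40), beside 27.3% lower over all genes. With replicate 4 as the only LPS+MV array the median of the list was -0.286. The water channel Aqp5 was at 1529, 1837, 1791 and 1873 in controls and at 905, 804, 854 and 951 after treatment (-0.97 ± 0.10). Ager (RAGE), the most typical type 1 cell marker, fell by 0.63 ± 0.08, from 10610 to 12680 across controls to 7216 to 8335, with a probe set that could also detect related transcripts. Igfbp2 (-0.94 ± 0.17) and Gprc5a (-0.85 ± 0.14) also fell, and Pdpn did not pass (-0.17 ± 0.10).

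Of 14 surfactant and type 2 cell genes 7 fell and 1 rose (median -0.40). The abundant surfactant proteins split: Sftpc (0.05 ± 0.05) and Sftpa1 (0.09 ± 0.05) did not pass, Sftpd rose by 0.36 ± 0.08, and Sftpb fell (-0.53 ± 0.17, but -0.282 with replicate 4 alone), a call lost without LPS+MV replicate 3 (adjusted p = 0.0542). Of these, at least Sftpc lies near the top of the intensity range of these arrays, which reached 25073. Lpcat1, which makes the main phospholipid of surfactant, fell by 1.07 ± 0.08, and the lipid transporter Abca3 by 0.90 ± 0.12, from 1451 to 1734 across controls to 741 to 913. The transcription factor Cebpa, at 581 to 683 in controls and 308 to 353 after treatment, fell by 0.94 ± 0.11, while Nkx2-1 was dim and did not pass (-0.03 ± 0.06). None of 11 airway secretory genes passed (median 0.06), and in 11 ciliated cell genes 1 rose and 2 fell, with the ciliary master factor Foxj1 at -0.09 ± 0.14.

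Salt, water and barrier genes were mixed, with 6 of 16 higher and 6 lower (5 and 4 with the Xist term, 4 and 2 with replicate 4 alone). The 3 subunits of the epithelial sodium channel, which clears alveolar fluid, all fell, Scnn1a by 0.38 ± 0.12, Scnn1b by 0.49 ± 0.11 and Scnn1g by 0.54 ± 0.07, and the chloride channel Cftr rose by 1.25 ± 0.15. Scnn1a lost its call with the Xist term (adjusted p = 0.0738), and both it and Scnn1b with replicate 4 alone (0.161 and 0.0795). The alveolar tight junction gene Cldn18 fell by 0.60 ± 0.10 and Cldn7 rose by 0.43 ± 0.07. The anion exchanger Slc26a4 (pendrin), which is not in these lists, was at 23.4 to 42.7 in controls and at 687, 667, 516 and 610 after treatment (3.29 ± 0.15).

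Of 13 leukocyte adhesion molecules 5 rose and 2 fell (median 0.08). P-selectin (Selp) rose by 2.65 ± 0.16, Vcam1 by 1.74 ± 0.14, E-selectin (Sele) by 1.61 ± 0.15 and Icam1 by 1.57 ± 0.09, the last from 1857 to 1939 across controls to 5230 to 6530. These 4 molecules of activated endothelium let leukocytes roll and stick. Of 19 endothelial identity genes 13 fell and 0 rose (median -0.44; 10 fell with the Xist term and 8 with replicate 4 alone). After Klf2 the largest was Sox17, an arterial transcription factor, at 563, 469, 361 and 436 in controls and 184, 215, 205 and 228 after treatment (-1.02 ± 0.17). The VEGF receptor Kdr fell by 0.78 ± 0.12 and Cdh5, the cadherin of endothelial junctions, by 0.42 ± 0.11 (adjusted p = 0.0642 with the mean over its probe sets), while Pecam1 did not pass (-0.25 ± 0.12) with overlapping arrays. In VEGF and angiopoietin signalling 11 of 15 fell and 2 rose (median -0.36; 7 fell with the Xist term and 4 with replicate 4 alone), among them the co-receptor Nrp1 (-0.64 ± 0.08) and Vegfd (-0.91 ± 0.13), while Angptl4 rose by 1.30 ± 0.17. In coagulation genes 6 of 12 rose and 3 fell. The initiator tissue factor (F3) rose by 1.40 ± 0.15 and the urokinase receptor Plaur by 2.18 ± 0.14, and the anticoagulant Thbd fell by 0.49 ± 0.10.

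Matrix genes fell as well, 13 of 20 with 1 higher (median -0.49; 9 fell with the Xist term and 4 with replicate 4 alone). Eln, the precursor of elastic fibres, was at 964, 798, 1024 and 1033 in controls and at 424, 413, 302 and 506 after treatment (-1.17 ± 0.18), and Col1a1 fell by 1.07 ± 0.18 (adjusted p = 0.156 with replicate 4 alone). Of 15 matrix proteases and inhibitors 6 rose and 2 fell (3 rose with replicate 4 alone), with Adamts4, an aggrecanase, at 20.7 to 23.3 in controls and 170 to 334 after treatment (2.39 ± 0.21) and the inhibitor Timp1 up by 1.90 ± 0.15. In TGF-beta and BMP signalling 12 of 21 fell and 4 rose (median -0.34; 10 fell with the Xist term, and 5 fell and 2 rose with replicate 4 alone). Both inhibitory SMADs fell, Smad6 by 1.004 ± 0.19 and Smad7 by 0.85 ± 0.11, with the ligand Bmp4 (-0.79 ± 0.12; adjusted p = 0.0603 with replicate 4 alone) and the BMP target Id4 (-1.07 ± 0.13). Stretch targets of YAP showed no single direction, with 4 of 13 higher and 3 lower (1 lower with replicate 4 alone): Thbs1 rose by 2.23 ± 0.30, Ankrd1 did not pass (0.58 ± 0.28) and Ajuba fell by 0.71 ± 0.09.

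Markers of blood cells were looked at in the same way. Of 12 neutrophil genes tested 6 rose and 0 fell (median 1.24; 4 rose with replicate 4 alone), with Ly6g, Mpo, Elane, Fpr1, Retnlg and Stfa1 not among the genes tested. The mean log2 level of the list was 7.69, 7.28, 8.90 and 9.39 in controls 1 to 4 and 9.29, 9.26, 9.59 and 9.74 after LPS+MV, so control 4 lay inside the treated range. Clec4e, a receptor induced in myeloid cells, rose by 2.86 ± 0.25, and Fpr2, a chemotactic receptor, by 1.46 ± 0.22. S100a8, at 8894 to 10560 after treatment, did not pass (1.26 ± 0.52). S100a9 passed (1.41 ± 0.54), but not without control 1 or 2 or LPS+MV replicate 1, 3 or 4 (adjusted p 0.0564 to 0.217), with the Xist term (0.133), with array weights (0.105) or with only the compared groups (0.104). The granule proteins of immature neutrophils Ngp (-0.04 ± 0.50) and Camp (-0.21 ± 0.20) did not pass. The part of these cells in the cytokine results was not tested.

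Platelet genes fell, 8 of 9 with 0 higher (median -0.64; 5 fell with the Xist term and 1 with replicate 4 alone). Gp1bb, a subunit of the von Willebrand factor receptor, was at 127, 130, 302 and 532 in controls and at 70.1, 68.3, 71.7 and 82.9 after treatment (-1.33 ± 0.27; adjusted p = 0.0595 with replicate 4 alone). Ppbp was at 970, 904, 1686 and 2313 and then at 477, 538, 563 and 667, so controls 3 and 4 were the highest here too. Of 6 red cell genes 5 fell (median -0.91; 2 fell with replicate 4 alone), with the band 3 anion exchanger Slc4a1 at 86.8 to 239 in controls and 39.3 to 49.2 after treatment (adjusted p = 0.144 with replicate 4 alone). Of 15 lymphocyte genes 4 fell and 0 rose (2 fell with the Xist term), a share close to the 27.3% of all genes that fell. The B cell receptor subunit Cd79a fell by 1.20 ± 0.19, and the T cell receptor chain Cd3d had a mean of 128 in both groups (-0.00 ± 0.17). In 16 macrophage and monocyte genes 3 rose and 3 fell (2 and 1 with the Xist term, 8 and 1 with replicate 4 alone). Ccr2, the receptor of classical monocytes, was at 493, 248, 732 and 714 in controls and at 120, 161, 232 and 313 after treatment (-1.24 ± 0.35, but -0.643 with replicate 4 alone), and lost its call with the Xist term (adjusted p = 0.069). None of 11 heart muscle genes passed, but their mean was 8.26, 9.64, 9.97 and 9.19 in LPS+MV replicates 1 to 4 against 9.13 to 9.28 in controls.

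**Figure D3:**
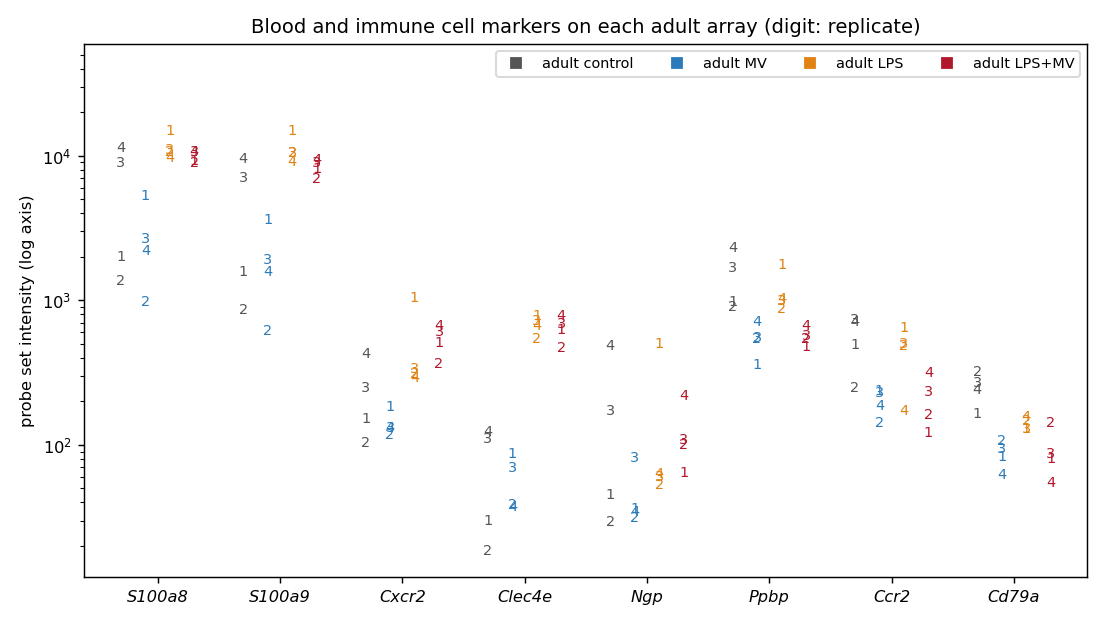
Intensity (log axis) of 8 blood and immune cell markers on each adult array, with the replicate number drawn at each point. Controls 3 and 4 lie above controls 1 and 2 for S100a8, S100a9, Ngp and Ppbp, and for S100a8 control 4 (11370) lies above all 4 LPS+MV arrays.

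None of 15 respiratory chain subunits passed (median -0.00), and of 12 ribosomal protein genes 2 rose and 1 fell, within 0.25 of 0 in log2. The shares that fell among the cell cycle, mRNA decay, Kruppel-like and MAPK phosphatase lists below are under the 27.3% of all genes that fell. In 21 cell cycle genes 1 rose and 4 fell (median -0.08; 2 fell with the Xist term and 0 with replicate 4 alone), with the helicase subunits Mcm6 (-0.63 ± 0.15) and Mcm7 (-0.65 ± 0.13) lower (adjusted p = 0.134 and 0.0613 with replicate 4 alone) and the proliferation marker Mki67 at -0.02 ± 0.30. In 16 clock genes 4 rose (2 with the Xist term and 2 with replicate 4 alone), led by Bhlhe40 (2.52 ± 0.14) and Nfil3 (1.43 ± 0.25), and Arntl (-0.20 ± 0.24) did not pass. The other 2 that rose, Per1 and Cry1, lost their calls without any of 5 arrays (controls 1 and 3 and LPS+MV 1, 3 and 4; adjusted p 0.0595 to 0.138) and 4 arrays (controls 1 and 2 and LPS+MV 2 and 4; 0.0566 to 0.109). In 13 prostaglandin and leukotriene genes 3 rose and 5 fell (2 fell with replicate 4 alone). Ptgs2 (COX-2) rose by 2.35 ± 0.44 with the synthase Ptges (1.10 ± 0.12) and the receptor Ptger4 (1.65 ± 0.13), and Hpgd, which degrades prostaglandins, fell by 0.71 ± 0.13. Of 9 factors of cytokine mRNA decay 4 rose and 2 fell, with Zfp36 (tristetraprolin) at 416 to 490 in controls and 2017 to 3387 after treatment (2.51 ± 0.25) and the nuclease Zc3h12a up by 1.40 ± 0.12. Of 11 Kruppel-like factors 3 rose and 2 fell (1 rose with replicate 4 alone). Of 15 MAPK phosphatases and Sprouty genes 5 rose and 4 fell (3 rose with the Xist term, and 3 rose and 2 fell with replicate 4 alone), with Etv5 and Dusp6 (-0.61 ± 0.13; adjusted p = 0.181 with replicate 4 alone), which both depend on growth factor signalling, lower and Dusp16 (1.28 ± 0.16) higher.

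The combination was set against LPS alone in adults, which asks what ventilation added to the inhaled LPS. Few genes differed by much. In all 922 genes (7.04%) differed, 483 higher (3.69%) and 439 lower (3.35%), and only 21 by at least 2-fold. Tnfsf9, the costimulatory ligand named above, was at 131, 114, 140 and 147 after LPS and at 880, 620, 970 and 645 after LPS+MV (2.28 ± 0.22, limma adjusted p = 3.74e-07). Sowahb was at 80.4 to 110 after LPS, close to the controls at 58.1 to 99.0, and at 335, 231, 353 and 367 after LPS+MV (1.51 ± 0.18). Flcn (folliculin), a regulator of lysosomal and mTORC1 signalling, was at 91.6, 85.2, 81.7 and 69.0 after LPS and at 206, 222, 241 and 297 after LPS+MV (1.26 ± 0.11), with controls between them at 113 to 132. Slc26a4 was lower than after LPS alone, at 516 to 687 against 1153 to 1561 (-1.16 ± 0.15). The calls for these 4 genes held in every setting tried. The 4 were taken from the 6 highest and 6 lowest genes of this comparison.

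The 2 chemokines that rose most also differed. Cxcl1 was higher after LPS+MV than after LPS by 1.01 ± 0.19, though not with the Xist term (adjusted p = 0.0669) or with replicate 4 alone (0.165). For Cxcl2 the difference was 0.63 ± 0.18, and it was lost when LPS replicate 2, 3 or 4 or LPS+MV replicate 1 or 3 was left out (0.0585 to 0.137). Csf2 (0.95), Sele (0.93), Plaur (0.82), Il1rn (0.80), Gadd45a (0.88) and Zfp36 (1.01) were also higher than after LPS, of which Zfp36 lost its call with the Xist term (adjusted p = 0.0867) and all 6 with replicate 4 alone (0.0521 to 0.29). Cxcl10 (0.02 ± 0.22), Ccl20 (0.09 ± 0.12), Cxcl3 (-0.01 ± 0.14) and Cd14 (-0.04 ± 0.11) did not pass. Tmem100 was lower by 1.31 ± 0.21 and Etv5 by 0.59 ± 0.09, and both lost the call with replicate 4 alone (0.0524 and 0.184). Of 12 cholesterol and oxysterol genes 4 were higher than after LPS and 0 lower. They were the synthesis enzymes Hmgcs1 (0.80), Sqle (0.80), Fdps (0.94) and Lss (0.45), of which Lss lost its call without LPS+MV replicate 3 (0.0506), and none passed with the Xist term (0.0912, 0.0614, 0.0676 and 0.188). Against control these 4 did not pass. Sqle was at 190 to 245 in controls, 118 to 151 after LPS and 232 to 298 after LPS+MV.

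Others of the 6 highest and 6 lowest genes depended on single arrays. Rsrp1 was at 305 to 512 after LPS, 1057 to 2053 after LPS+MV and 712 to 1587 in controls (1.70 ± 0.33) and kept its call. Ptgs2 (1.43) lost its call without any of 7 arrays (all 4 of LPS, and LPS+MV 1, 3 or 4; adjusted p 0.0603 to 0.127), and Myom2 (1.14), a muscle gene, without LPS 2 or 3 or LPS+MV 2 or 3 (0.0679 to 0.105). The myeloid genes Wfdc17 (-1.46; lost without LPS 1 or 3 or LPS+MV 1, 2 or 3; 0.0571 to 0.0824), Slfn4 (-1.08; lost without LPS 2, 3 or 4 or LPS+MV 2 or 4; 0.0505 to 0.104) and Slfn1 (-1.01; lost without LPS 1 or LPS+MV 2; 0.061 to 0.0692) were lower than after LPS. Orly (-1.02) was high only on LPS replicate 2, at 201 against 18.7 to 56.6 on the other 3, and lost its call without any array but LPS 1 (0.0721 to 0.221). None of the 4 adult LPS arrays had high Xist, so this comparison carries the same imbalance, and with the Xist term 246 genes passed.

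Against ventilation alone, which asks what LPS added, 2271 genes (17.4%) differed, 1572 higher (12%) and 699 lower (5.34%). After quantile normalization the split was 1263 higher and 1685 lower, so the numbers on each side depend on the scaling. The 12 genes named in this paragraph kept their direction and call after quantile normalization. The highest were Cxcl1 (5.44 ± 0.19), Cxcl10 (5.30 ± 0.22), Cxcl2 (5.25 ± 0.18), Ccl20 (4.56 ± 0.12), Cxcl5 (4.42 ± 0.18) and Cxcl3 (4.32 ± 0.14). After ventilation alone Cxcl1 was at 66.3, 60.5, 51.6 and 16.0. The lowest were Cckar (-2.41 ± 0.08), Etv5 (-1.93 ± 0.09), Elf5 (-1.68 ± 0.09), Arrdc3 (-1.61 ± 0.18), Chil4 and Tmem100 (-1.41 ± 0.21). Arrdc3, an arrestin family gene, was at 790 to 1100 after ventilation and at 247 to 335 after LPS+MV, with controls at 497 to 602. Chil4 (-1.52 ± 0.50), a chitinase-like protein, was high on ventilation replicates 1 and 4 only (344 and 509, against 25.9 and 37.0), and lost its call without either of them or any LPS+MV array (adjusted p 0.0579 to 0.204). All 4 arrays of ventilation alone had high Xist.

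The 3 adult treatments share their 4 control arrays, so their changes against control are given side by side and were not set against each other by rank or overlap. LPS alone changed 36% of genes (12.9% higher, 23% lower), ventilation alone 31.5% (7.17% higher, 24.3% lower) and the combination 42.1%. For Cxcl1 the 3 differences from control were 5.19 for LPS, 0.76 for ventilation and 6.20 for both, and for Etv5 they were -2.16, -0.82 and -2.75. Tmem100 had -0.66 and -0.56 with either treatment and -1.96 with both. Sowahb passed with neither alone (0.14 and 0.44) and rose by 1.64 with both. Klf2 had -1.07 with LPS, -1.83 with ventilation and -1.97 with both. Flcn fell with LPS (-0.43) and rose with ventilation (0.80) and with both (0.83). Slc26a4 had 4.45 with LPS, 0.29 with ventilation, which did not pass, and 3.29 with both.

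**Figure D4:**
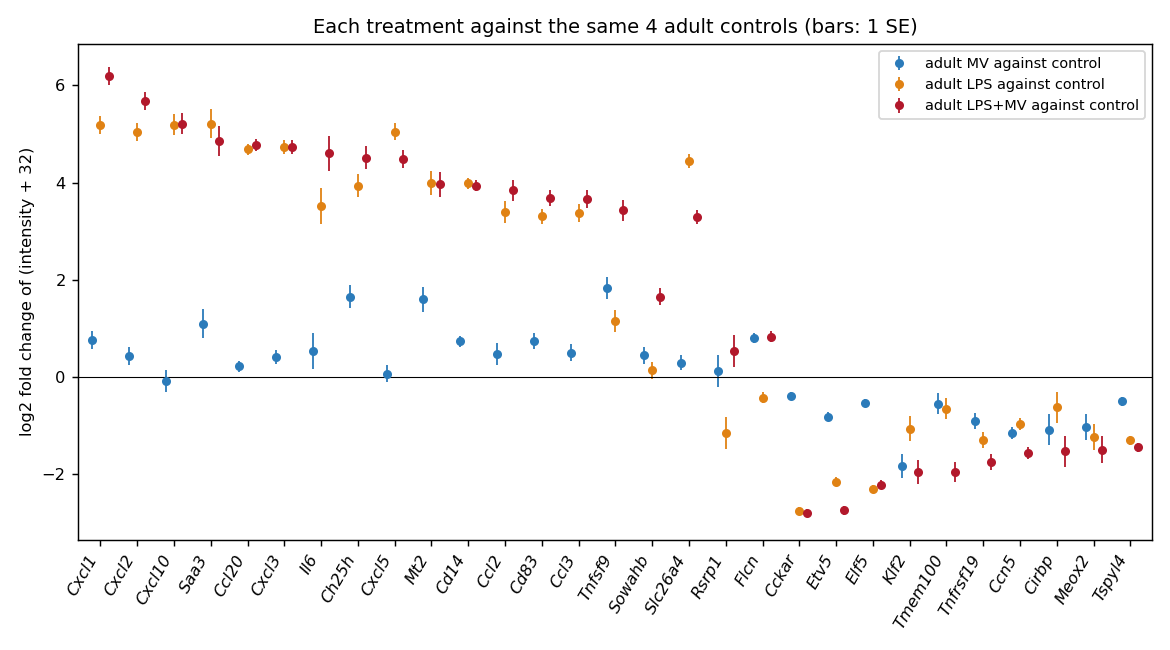
Log2 fold change (bars: 1 SE) of named genes in LPS+MV, LPS and MV, each against the same 4 adult controls. For Tnfsf9 and Sowahb the LPS+MV point (3.43 and 1.64) lies above both single treatments, and for Cckar the LPS and LPS+MV points lie together at -2.76 and -2.81.

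The study's design also asks whether adults and juveniles differ. The adult and juvenile changes share no arrays, and the difference between them was tested in the same model. Xist was high on 1 of 4 juvenile controls and 2 of 3 juvenile LPS+MV arrays, beside 0 of 4 and 3 of 4 in adults. The imbalance thus differed between the ages, and with the Xist term 240 genes passed. LPS+MV changed 31.3% of genes in juveniles (10.8% higher, 20.5% lower). Of 13089 genes 275 (2.1%) differed, 112 with a higher (0.856%) and 163 with a lower (1.25%) change in adults. Cxcl1 rose by 6.20 in adults and 5.54 in juveniles, and Il6 by 4.60 and 4.56, and neither difference passed (0.65 ± 0.28 and 0.04 ± 0.54). Cxcl3 rose more in adults, by 4.73 against 3.61 (difference 1.12 ± 0.21, limma adjusted p = 0.00614). The juvenile arrays were at 6.44 to 8.13 in controls and 492, 515 and 358 after LPS+MV. Cckar fell more in adults, -2.81 against -1.75 in juveniles (difference -1.05 ± 0.12). Adult controls were higher, at 326 to 392 against 144 to 193, and both ages ended at 16.3 to 30.4. Ccn5 likewise fell by 1.56 in adults and 0.55 in juveniles, whose controls were at 106 to 147 (difference -1.01; adjusted p = 0.311 with replicate 4 as the only adult LPS+MV array). The calls for Cxcl3 and Cckar held in every setting.

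Among 15 glucocorticoid receptor targets 2 had a higher change in adults and 0 a lower one, and among 24 interferon-stimulated genes 0 had a higher and 4 a lower one, beside 0.856% and 1.25% of all genes. The interferon-stimulated genes Ifit1, Ifit2 and Usp18 lost their calls without some single arrays (limma adjusted p up to 0.0738, 0.0862 and 0.107). Zbtb16, a glucocorticoid-induced transcription factor, was at 164, 75.1, 112 and 63.4 in adult controls and at 670.0, 727, 330.4 and 520 after LPS+MV, and in juveniles at 535, 421, 444 and 1065 in controls and 559, 624 and 626 after treatment. It thus rose in adults (2.13) from a lower start and not in juveniles (0.07; difference 2.06 ± 0.41). Ifit3, an interferon-stimulated gene, rose by 1.28 in adults and 2.69 in juveniles (-1.41), from 312 to 410 across adult controls and 184 to 266 across juvenile controls. Aqp5 fell by 0.97 in adults and gave -0.23 in juveniles (-0.74). Camp, an antimicrobial peptide of neutrophil granules, gave -0.21 in adults and rose by 1.53 in juveniles (-1.74 ± 0.29). F13a1, a monocyte and platelet gene, fell by 1.19 in adults and gave 0.78 in juveniles (-1.96 ± 0.42). With adult LPS+MV replicate 4 alone Zbtb16, Ifit3, Aqp5, Camp and F13a1 lost their calls (adjusted p 0.106 to 0.387), and F13a1 also when only the compared groups were fitted (0.0739). Pdk4 (1.77), Fam107a (1.69), Npr3 (1.21) and Angptl4 (1.09) had higher changes in adults, and Ngp (-2.85), Ifitm6 (-2.58), Ccr2 (-2.09) and Plac8 (-1.53) lower ones, but each of these 8 lost its call when some single array was left out, up to adjusted p 0.066, 0.0801, 0.0936, 0.0697, 0.0829, 0.0505, 0.0874 and 0.0898 in that order. For Ifitm6 that was juvenile control 1 alone, and for the others between 4 and 10 arrays, with at least 1 juvenile and 1 adult array for each. Zbtb16, Pdk4 and Fam107a were highest on juvenile control 4, at 1065, 260.3 and 566.

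**Figure D5:**
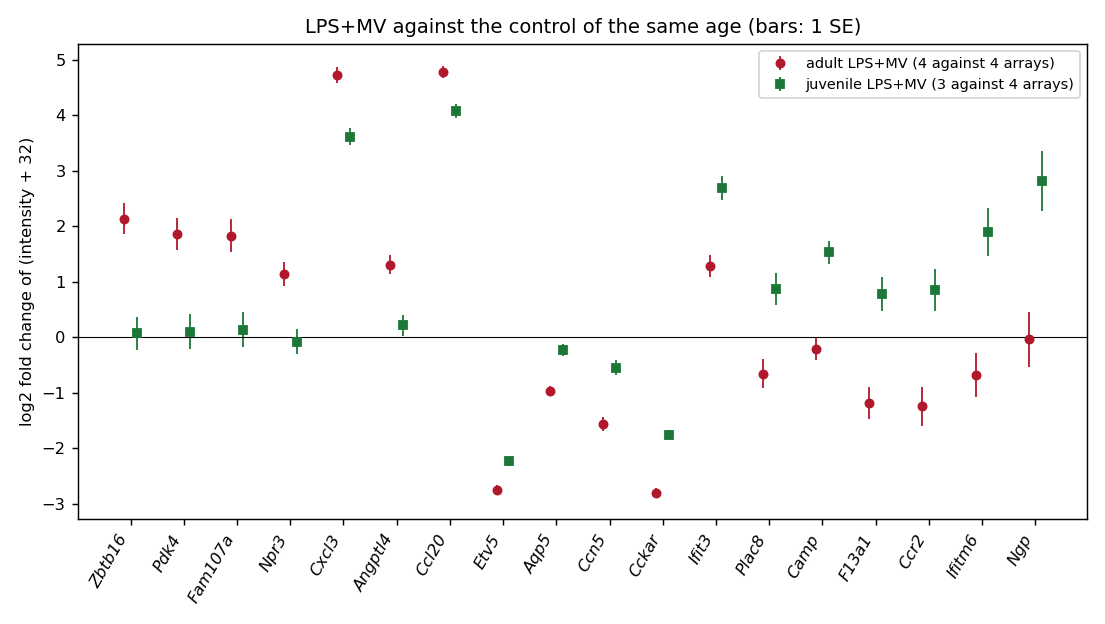
Log2 fold change of LPS+MV against the control of the same age (bars: 1 SE), for adults and juveniles, for 18 genes whose change differed between the ages, among them Ifit3 and Aqp5, which were chosen after their values were seen. Zbtb16 lies at 2.13 in adults and 0.07 in juveniles, and Camp at -0.21 in adults and 1.53 in juveniles.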

How the data were processed

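The submitters deposited 1 table of probe set intensity values for 30 whole-lung arrays, and the deposited intensity values are linear (4.5 to 25073). MAS5 is the only tool in the submitters' processing notes, and the method of scaling is not given in the sources used here. Members and gene lists were chosen with earlier results of these data known. Of 45037 probe sets, 34945 had 1 gene symbol, 932 several and 9160 were unnamed here. A probe set was kept if at least 3 arrays had it above that array's median (24825), and the brightest stood for each gene (13089 genes). limma 3.58.1 in R 4.3.3 (lmFit, eBayes with trend) was run on log2(intensity + 32) over 8 group means, with Benjamini-Hochberg adjustment over all genes. The script was tested on simulated data. No arrays held identical values. Named genes were the 14 highest and 10 lowest with no overlap between groups, up to 5 members a list by smallest p with others by value, and the 6 highest and lowest per other comparison; a few genes named for their biology, such as Slc26a4 and Ifit3, were chosen after their values were seen. Alternatives were quantile normalization, other constants, filters, probe set means, array weights, a replicate block, an Xist term and leaving out arrays. Same-numbered animals did not deviate together (correlations -0.143 to 0.152), so the numbers were not taken as pairs.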

Additional observations from a re-analysis of the deposited data

Results flagged for a closer look

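Of 148 groups of 4 arrays looked at, 6 had 1 array far from the other 3, where chance gives about 1 in 20. Cxcl10 was at 11.676 (log2) on LPS+MV replicate 3, with the others at 10.931 to 11.012. The mean of the interferon-induced CXC chemokines was 6.52 on control 3 (others 5.694 to 5.776), and that of the interferon regulatory factors 7.725 on the same array (others 7.582 to 7.6). The coagulation genes had a mean of 8.306 on control 4 (others 8.123 to 8.141), the cholesterol genes 8.625 on LPS+MV replicate 3 (others 8.5 to 8.522), and the ribosomal proteins 12.19 on control 1 (others 12.133 to 12.143).

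The change with LPS+MV differed between adults and juveniles, by the test of that difference, for 48 of the list and named genes, of which 2 kept the call in every setting tried. Given here are the 16 of them among the genes that changed most, with Ifit3 and Aqp5, which were chosen after their values were seen. The adult change was higher for Zbtb16 (2.064), Pdk4 (1.766; 1.86 in adults and 0.09 in juveniles), Fam107a (1.695; 1.83 and 0.14), Npr3 (1.212; 1.13 and -0.08), Cxcl3 (1.117), Angptl4 (1.088; 1.30 and 0.22) and Ccl20 (0.7; 4.78 and 4.08). It was lower for Ngp (-2.85; -0.04 and 2.81), Ifitm6 (-2.579; -0.68 and 1.90), Ccr2 (-2.093; -1.24 and 0.85), F13a1 (-1.963), Camp (-1.736), Plac8 (-1.526; -0.66 and 0.87), Cckar (-1.053), Ifit3 (-1.411; 1.28 and 2.69), Ccn5 (-1.009), Aqp5 (-0.741; -0.97 and -0.23) and Etv5 (-0.523; -2.75 and -2.23). The calls for Ccl20 and Etv5 were lost without some single arrays, with adjusted p up to 0.0747 and 0.117.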

How the results depend on the processing

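Against control, 4870 to 5242 genes passed when 1 array was left out and 2588 with LPS+MV replicate 4 as the only treated array. Against LPS alone the count of 922 became 1776 with array weights, 246 with the Xist term, 105 with replicate 4 alone, and 541 to 948 over left-out arrays (541 without LPS replicate 2, 595 without LPS+MV replicate 3). Against ventilation alone 2271 became 1011 with replicate 4 alone and 1764 to 2209 over left-out arrays. The age count of 275 became 1723 with array weights, 71 with only the compared groups, 418 with the replicate block, 29 with replicate 4 alone, 615 without the 4 arrays farthest from their group (a setting added after seeing the data), and 95 to 1136 over left-out arrays (95 without juvenile control 1, 1136 without juvenile control 4). With the replicate block 5630 genes passed against control, 1066 against LPS and 2404 against ventilation, and the numbers do not pair the animals. With replicate 4 alone 3 results changed sign: Mrc1 was 0.43 against control (adjusted p = 0.0236) and 0.14 against ventilation (0.629), and Tubb4b was -0.004 against ventilation (0.993); the cause was not tested. Of 346 list and named genes that changed, 212 kept the call in every setting, 48 lost it without some array, 58 with the Xist term and 122 with replicate 4 alone, which also has fewer samples. Sex is unlabelled and unbalanced, and dim probe sets understate differences.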
